A study of Rattus norvegicus with 20 samples.

Results

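The 9 genes described here encode plasma proteins of the acute phase response and of complement that the liver secretes: A2m, Orm1, Hp, Crp, Fga, Fgb, Fgg, C3 and C9. They are 9 of the 10411 genes that the array measures with a probe set of their own. Every probe set annotated to exactly 1 of them was taken, which gave 12 of 15866 once the array's own controls were set aside. Fgb had 3 probe sets, Fga had 2 and the other genes had 1 each. They were measured on Affymetrix arrays in liver of male Wistar rats whose daily food was cut by 5, 10, 20 or 30% for 1 month or 1 week, and in rats of the same 2 durations without restriction. The labels give a stage of 9 weeks for the 1 month arrays and 6 weeks for the 1 week arrays, while the design text gives 6 weeks as the age when restriction began, so the age at sampling is not certain. Every rat was fasted for 16 h before its liver was taken. RNA of 5 rats was pooled for each of the 10 groups and each pool was hybridised to 2 arrays, which gave 20 arrays and a single pool for each group. The spread between rats was therefore not measured. The pool, the mean of its 2 arrays, was the unit of every main test (n = 10 pools, 8 restricted and 2 control). An alternative fit, given for comparison, kept the arrays apart.

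The acute phase response is the change in the liver's output of plasma proteins during injury or infection, driven mainly by interleukin-6 through its receptor subunit gp130 and the factor STAT3, and by interleukin-1 through NF-kB and C/EBP factors. Fibrinogen is a plasma protein built from the alpha, beta and gamma chains encoded by Fga, Fgb and Fgg, and thrombin turns it into the fibrin of a clot. Complement is a cascade of plasma proteins in which C3 is the central component and C9 forms the pore of the membrane attack complex. Some acute phase genes behave differently between species: A2m is low in the healthy adult rat and strongly induced by inflammation there, whereas rat Crp is made constitutively by the liver.

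The 3 fibrinogen genes lie side by side on rat chromosome 2 in the order Fgg, Fga, Fgb, the 3 protein-coding genes of a stretch of 47947 bases in the RefSeq annotation of GRCr8. Their promoters are shown because these are the members that share a locus and a product. Each is the 250 bases before the annotated start, 5' to 3' on the gene's own strand, from RefSeq with build GRCr8: chr2:170652833-170653082 (+) for Fgg, chr2:170671919-170672168 (+) for the first Fga entry and chr2:170700876-170701125 (-) for Fgb. Capitals mark matches, on either strand, to 4 motifs: the STAT element TTCNNNGAA, the core CTGGGA of the interleukin-6 response element, the C/EBP letters TTGCNNAA and the HNF1 letters GTTAAT.
Fgg: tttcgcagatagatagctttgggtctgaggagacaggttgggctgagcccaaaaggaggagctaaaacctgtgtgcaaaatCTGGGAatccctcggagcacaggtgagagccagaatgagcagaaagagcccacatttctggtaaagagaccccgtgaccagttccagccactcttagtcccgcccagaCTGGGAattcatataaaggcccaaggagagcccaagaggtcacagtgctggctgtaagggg
Fga: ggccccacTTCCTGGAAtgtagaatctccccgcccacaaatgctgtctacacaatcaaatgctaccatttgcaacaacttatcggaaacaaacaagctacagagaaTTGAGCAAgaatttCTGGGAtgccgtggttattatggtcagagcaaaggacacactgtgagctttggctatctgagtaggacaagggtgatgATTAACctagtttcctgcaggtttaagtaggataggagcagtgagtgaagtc
Fgb: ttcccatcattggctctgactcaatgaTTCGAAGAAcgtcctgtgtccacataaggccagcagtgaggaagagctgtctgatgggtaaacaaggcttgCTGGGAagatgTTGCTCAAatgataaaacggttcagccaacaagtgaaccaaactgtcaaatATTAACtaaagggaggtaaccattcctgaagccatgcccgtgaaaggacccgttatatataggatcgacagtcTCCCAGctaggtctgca
The Fga window held 1 match to each of the 4 motifs, and the window of the second Fga entry, whose start lies a few bases downstream, held no STAT element and 1 match to each of the other 3 motifs. The Fgb window held 2 matches to CTGGGA and 1 to each of the other 3 motifs. The Fgg window held 2 matches to CTGGGA and no match to the other letters searched. No matches overlapped. Of all 33469 promoter windows of this length, 7.67% held the STAT element, 25.7% held CTGGGA, 9.22% held the C/EBP letters and 6.45% held the HNF1 letters. Promoters of 6 of the 9 members were in the table used, and in the others of these the C/EBP letters occurred once in Orm1 and once in C3, and CTGGGA once in C3 and once in Crp. A match describes letters in a window and is not a measured binding site.

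All values below are MAS5 signals after quantile normalization, an intensity scale without unit on which the levels of different probe sets are not compared. Of the 12 member probe sets, 10 lay among the 9520 probe sets in the upper 60% by mean signal that were tested, and these had a lowest mean signal of 11.7. The other members, the Fgb probe sets 1371234_at and 1388266_at, had pool signals of 5.00 to 22.8 and 0.846 to 8.74 and were not tested. The 2 arrays of a pool had Pearson correlations of 0.901 to 0.931 over log2 signals, and the arrays' trimmed mean signals as deposited differed up to 2.57-fold, from 38.6 to 99.3. Pool means of the 3' over 5' signal ratio, a measure of RNA and labelling quality, were 1.30 to 1.61 for GAPDH and 2.23 to 3.07 for beta actin. Among liver markers, the summed signal of 11 hepatocyte markers was 46114 to 48527 in restricted pools, against 46821 to 47396 in control pools. Of these, Arg1, the urea cycle enzyme arginase, rose in restricted against control livers by 0.34 (limma adjusted p = 0.00537, past in 16 of 21 other settings), a call lost without the control pool of 1 month (adjusted p = 0.101) or that of 1 week (0.0846), and the other 10 did not pass that test. Of all probe sets tested, 5.27% passed it. In RNA of whole liver, fewer cells of a type and less RNA per cell cannot be told apart.

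**Figure D1:**
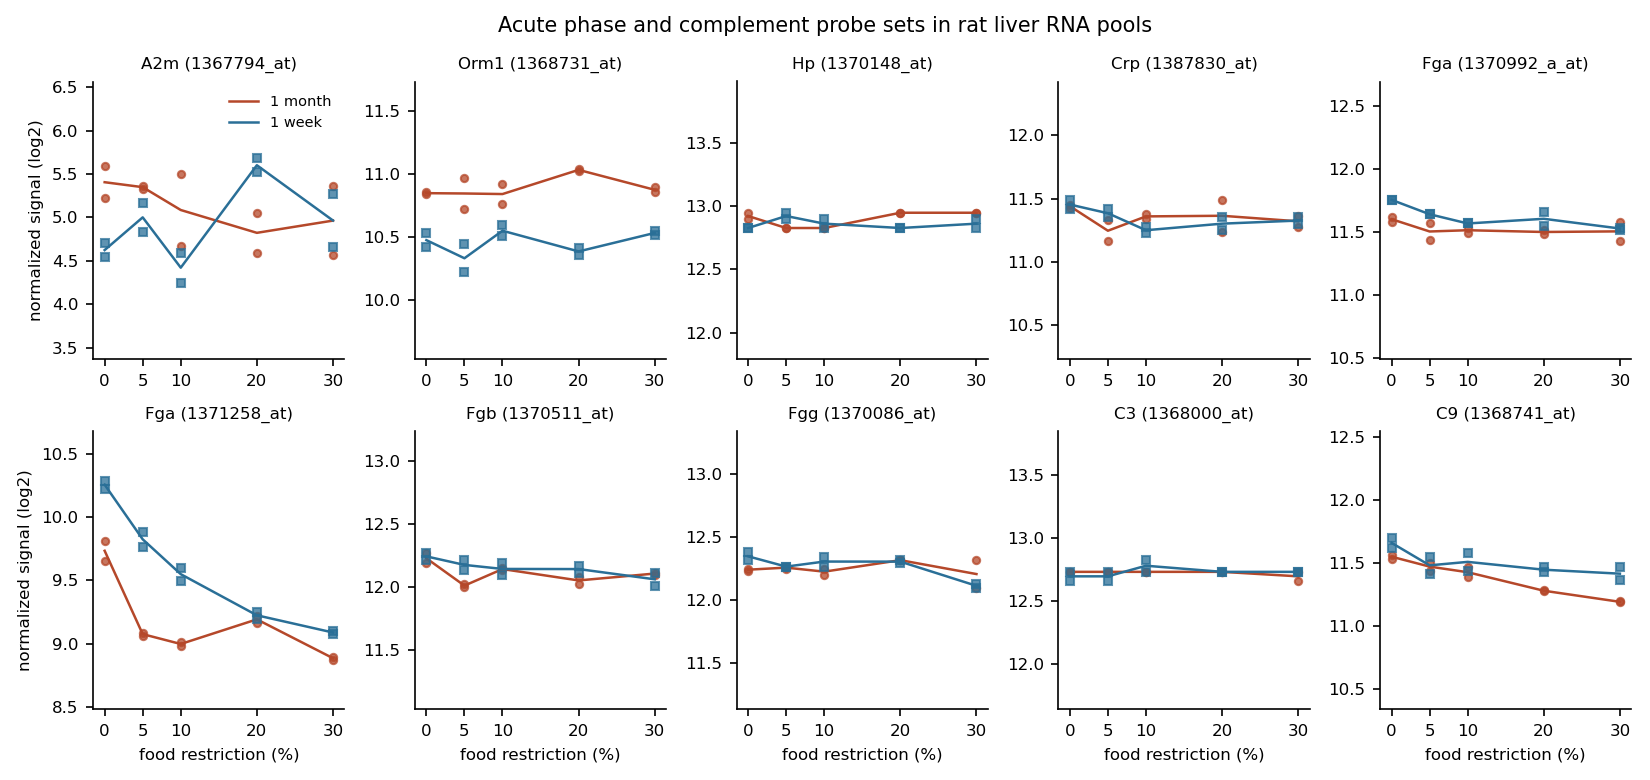
Normalized signal (log2) of the 10 tested member probe sets against food restriction in percent, with points for single arrays and lines through pool means, at 1 month (circles) and 1 week (squares). Pool means of C9, Crp, both Fga probe sets and Fgb lie below those of their controls at every level of restriction. Only C9 and Fga 1371258_at had slopes that passed. All levels of a duration share the same control pool, and the share of all probe sets with such an order was not counted. Orm1 is higher at 1 month at each of the 5 levels. The other panels show pool means within narrow ranges or, for A2m, wide scatter. Every vertical axis spans the same range of log2 signal except that of A2m, which is wider.

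To ask which of these genes follow the depth of restriction, log2 signal was fitted against percent restriction and duration together. Slopes are stated as log2 differences for 30 points of restriction. Of the 10 tested member probe sets, 2 were past the threshold, a limma p under 0.05 once adjusted by Benjamini-Hochberg across the 9520 tested, and both were lower with deeper restriction. They were C9 and the Fga probe set 1371258_at. On the whole array 3.76% of probe sets passed the same test, 171 higher and 187 lower. The median slope was -0.08 over the 10 members and 0.0034 over all probe sets.

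C9, the pore-forming last component of the membrane attack complex, fell with restriction in the fit over both durations. At 1 month its signal was 2998 in control livers, 2839 at 5% restriction, 2754 at 10%, 2487 at 20% and 2340.4 at 30%. At 1 week it was 3235 in control livers, 2859 at 5%, 2914 at 10%, 2793 at 20% and 2732 at 30%. All 8 restricted pools were below both control pools, and at every level both arrays of the restricted pool lay below both arrays of its own control. How many of all probe sets had such an order was not counted, here or for the members below. The slope was -0.28 ± 0.059 on the log2 scale (SE, n = 10 pools; 95% interval -0.41 to -0.15), which is 1.21-fold lower at 30% restriction, with an adjusted p of 0.0271 in limma. Within durations the slopes were -0.36 ± 0.080 at 1 month (limma adjusted p = 0.160) and -0.19 ± 0.080 at 1 week (limma adjusted p = 0.264), neither past the threshold. The slope stayed between -0.33 and -0.18 in all 22 other settings tried and passed in 9 of them. The call ended without the control pool of 1 month (adjusted p = 0.113), its 20% pool (0.0571) or its 30% pool (0.0873), and without the control pool of 1 week (0.0865), its 20% pool (0.0540) or its 30% pool (0.0524).

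C3, the central component that all complement pathways converge on, had no slope past the threshold. Its signal was 6633 to 6799 in the 5 pools at 1 month and 6633 to 7030.5 in the 5 pools at 1 week. C3 held ranks 4 to 6 of the brightest probe sets on every array, and quantile normalization gives such ranks the same few values on each array, which narrows the range that can be seen. The slope was -5.7e-05 ± 0.044 (SE; 95% interval -0.10 to 0.10; limma adjusted p = 1), and the log2 difference of restricted minus control livers was 0.01, or -0.07 with median centring. The difference of C9 minus C3 on the same array, a pair chosen after the values were seen, largely repeats C9 once C3 is held to its rank, and it is given as a description with no test. The difference was -1.50 at 30% restriction against -1.18 in control livers at 1 month, and -1.32 at 30% restriction against -1.04 in control livers at 1 week. Its slope was -0.28 ± 0.050 after quantile normalization and -0.25 ± 0.077 with the signals as deposited, where C3 is not held to a rank.

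Among the fibrinogen chains, the Fga probe set 1371258_at had the steepest slope of the 10 tested members. At 1 month its signal was 852 in control livers, 539 at 5% restriction, 511 at 10%, 585 at 20% and 472 at 30%. At 1 week it was 1225 in control livers, 907 at 5%, 749 at 10%, 598 at 20% and 544 at 30%. Each restricted pool had both arrays below both arrays of its own control, and 7 of 8 restricted pools were below both control pools, the exception being the 5% pool at 1 week. The GAPDH 3' over 5' ratio was 1.30 in the 30% pool against 1.52 in control livers at 1 month, and at 1 week it was 1.51 in control livers, 1.33 at 20% and 1.46 at 30%. With that ratio as a covariate the slopes were -0.94 for this probe set and -0.24 for C9, neither past the threshold (limma adjusted p = 0.149 and 0.248), while on the whole array 3 probe sets passed. At 1 week the signal was lower at each deeper level, whereas at 1 month the 5 and 10% pools were already below the 20% pool. The slope was -0.84 ± 0.177 (SE, n = 10 pools; 95% interval -1.22 to -0.45), a 1.79-fold fall over 30 percentage points, with a limma adjusted p of 0.0257. The slope passed in 13 of 22 other settings, and the call ended without the control pool of 1 month (adjusted p = 0.0998), or at 1 week without the control pool (0.0799), the 5% pool (0.0543), the 20% pool (0.0540) or the 30% pool (0.113).

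The other Fga probe set, 1370992_a_at, gave smaller differences in the same direction. Its signal was 3104 in control livers, 2900.4 at 5%, 2922 at 10%, 2893 at 20% and 2904 at 30% at 1 month, and 3453, 3189.8, 3031, 3111 and 2949 at the same levels at 1 week. All 8 restricted pools were below their own controls, but the slope of -0.12 ± 0.057 did not pass (limma adjusted p = 0.271). The 2 Fga probe sets ordered the pools alike, with a Pearson r of 0.92 and a Spearman rho of 0.81 over 10 pools that share a dose series and a normalization. On the same array, 1371258_at minus 1370992_a_at was -2.62 at 30% restriction against -1.87 in control livers at 1 month, and -2.44 at 30% restriction against -1.50 in control livers at 1 week, on the log2 scale. That difference had a slope of -0.71 ± 0.185. The pair was chosen after the values were seen, so the slope is given as a description with no test. In these pools the probe sets of 1 gene differed in the size of the change. The annotation names Fga for 1371258_at without an accession, and which part of the transcript its probes match was not analysed here.

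Fgb, the beta chain, was measured by 1370511_at. Its signal was 4790.4 in control livers, 4124 at 5%, 4514 at 10%, 4242 at 20% and 4406 at 30% at 1 month, and 4839.5, 4618, 4519, 4516 and 4269 at the same levels at 1 week. All 8 restricted pools were below both control pools, while the slope of -0.11 ± 0.061 did not pass (limma adjusted p = 0.367). Fgg, the gamma chain, ran from 4728 to 5103 at 1 month and from 4433 to 5211 at 1 week, with 3 of 8 restricted pools below both controls. Its slope was -0.09 ± 0.060 (limma adjusted p = 0.445). Over the 10 pools, the Fgb probe set had a Pearson r of 0.81 with Fga 1370992_a_at and 0.36 with Fgg (Spearman rho 0.89 and 0.33), as a description only. The chains whose promoters are printed above therefore had slopes of -0.12, -0.11 and -0.09 by their brightest probe sets, each with an error that left it short of the threshold.

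**Figure D2:**
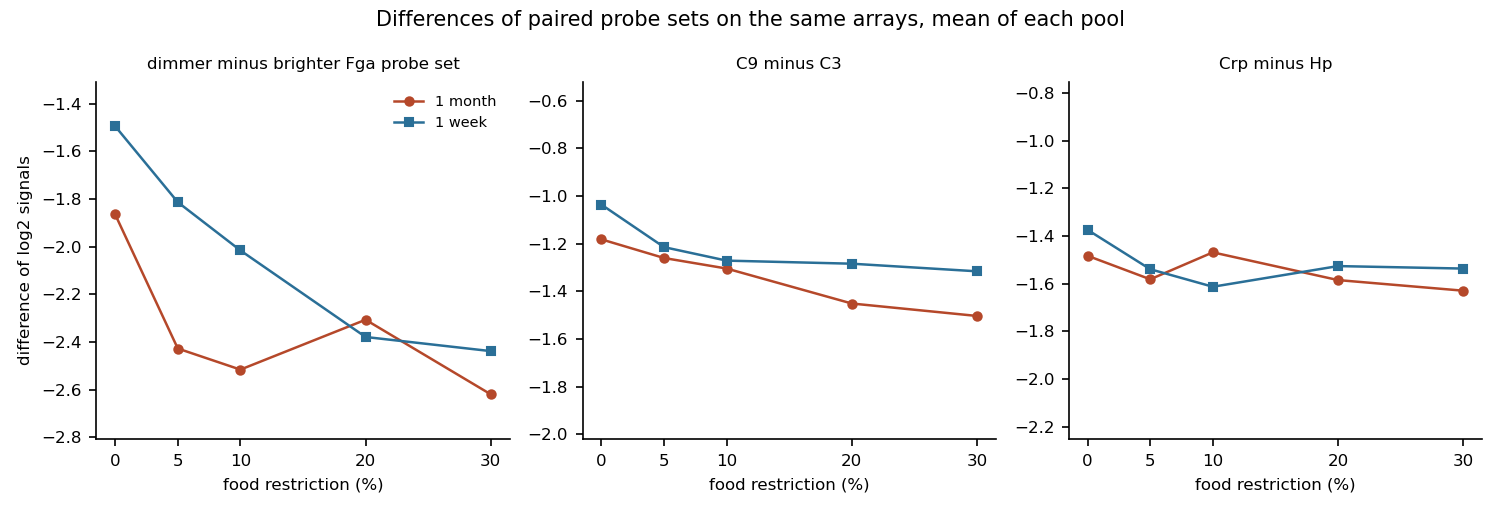
Difference of log2 signals between paired probe sets on the same array, averaged over the 2 arrays of each pool, against food restriction in percent at 1 month (circles) and 1 week (squares). The difference of Fga 1371258_at minus Fga 1370992_a_at and that of C9 minus C3 are below the control value in all 8 restricted pools, and that of Crp minus Hp in 7 of 8. C3 and Hp are held to narrow values by their ranks, so the panels that use them largely repeat C9 and Crp.

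The classical acute phase reactants gave no slope past the threshold. Crp, a pentraxin that binds phosphocholine, had a signal of 2779 in control livers, 2429 at 5%, 2627 at 10%, 2636 at 20% and 2556 at 30% at 1 month, and 2804, 2672, 2435, 2524 and 2567 at the same levels at 1 week. All 8 restricted pools were below both controls, but not in order of dose, and the slope was -0.07 ± 0.068 (limma adjusted p = 0.619). Hp, haptoglobin, which binds free haemoglobin, held ranks 2 to 4 of the brightest probe sets on every array and took values of 7270 to 7910, with a slope of 0.04 ± 0.053 (limma adjusted p = 0.781) whose sign turned to -0.09 with median centring. The difference of Crp minus Hp on the same array had a slope of -0.11 ± 0.062, and of -0.04 ± 0.064 with the signals as deposited, as a description.

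A2m, alpha-2-macroglobulin, is a broad inhibitor of proteases. Its signal was 42.4 in control livers, 40.7 at 5%, 33.9 at 10%, 28.3 at 20% and 31.2 at 30% at 1 month, and 24.6, 32.0, 21.4, 48.5 and 31.2 at the same levels at 1 week. The 2 arrays of a pool differed by an SD of 0.34 on the log2 scale, nearly the SD of 0.36 between pools. The slope over both durations was 0.0010 ± 0.288 (95% interval -0.63 to 0.63; limma adjusted p = 1.0). The slope was -0.53 at 1 month and 0.53 at 1 week, and their difference of -1.06 ± 0.512 did not pass (limma adjusted p = 0.921). Orm1, alpha-1-acid glycoprotein, a carrier of drugs and lipophilic compounds in plasma, had a slope of 0.08 ± 0.078 (limma adjusted p = 0.652).

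With duration as a covariate, the 8 pools of restricted rats were compared with the 2 of unrestricted rats, and 1 of the 10 tested members passed, the Fga probe set 1371258_at, which was lower. On the whole array 5.27% of probe sets passed, 301 higher and 201 lower. Its mean signal was 600.2 in restricted and 1022 in control livers, a log2 difference of -0.77 ± 0.150 (SE; limma adjusted p = 0.0135), which was lost without the control pool of 1 month (adjusted p = 0.133) or that of 1 week (adjusted p = 0.165). The next members by p did not pass: C9 at -0.20 ± 0.068 (limma adjusted p = 0.120), Fga 1370992_a_at at -0.13 ± 0.049 (0.151), Fgb at -0.13 ± 0.050 (0.171) and Crp at -0.13 ± 0.054 (0.220). At an unadjusted p under 0.05 these 5 probe sets were all lower, and on the array 18.9% of probe sets had such a p. With signals as deposited, Fga 1371258_at stayed lower at -0.55, not past the threshold. C9, Fga 1370992_a_at, Fgb and Crp then turned to 0.040, 0.095, 0.044 and 0.076. The remaining members, Fgg, A2m, Orm1, Hp and C3, lay between -0.04 and 0.01 after quantile normalization. With signals as deposited they lay between 0.10 and 0.29. With the 2 arrays kept apart in a replicate block, C9 and Fga 1370992_a_at had limma adjusted p-values of 0.0236 and 0.0491. The 2 arrays repeat the same RNA, so that fit takes its spread partly from technical repeats. It called 884 probe sets on the whole array, against 502 with the pool as the unit.

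Slopes were also fitted for each duration. At 1 month 0 of 10 members passed in limma, although 2 had an unadjusted p below 0.05, as did 10.5% of all probe sets, and 0.0315% of all probe sets passed. At 1 week 0 of 10 passed, although 4 had such an unadjusted p, as did 15.9% of all probe sets, and 0.714% of all probe sets passed. The Fga probe set 1371258_at had slopes of -0.56 ± 0.233 at 1 month (limma adjusted p = 0.429) and -1.12 ± 0.233 at 1 week (limma adjusted p = 0.0588). The test of the difference between the slopes called 0 members in limma, and 0 had an unadjusted p below 0.05. It called 0% of all probe sets, of which 525 had such a p. That difference was 0.56 ± 0.330 for Fga 1371258_at and -0.17 ± 0.113 for C9, 1 month minus 1 week (limma adjusted p = 0.927 each). A difference between the durations in dose response was therefore not shown for any member.

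**Figure D3:**
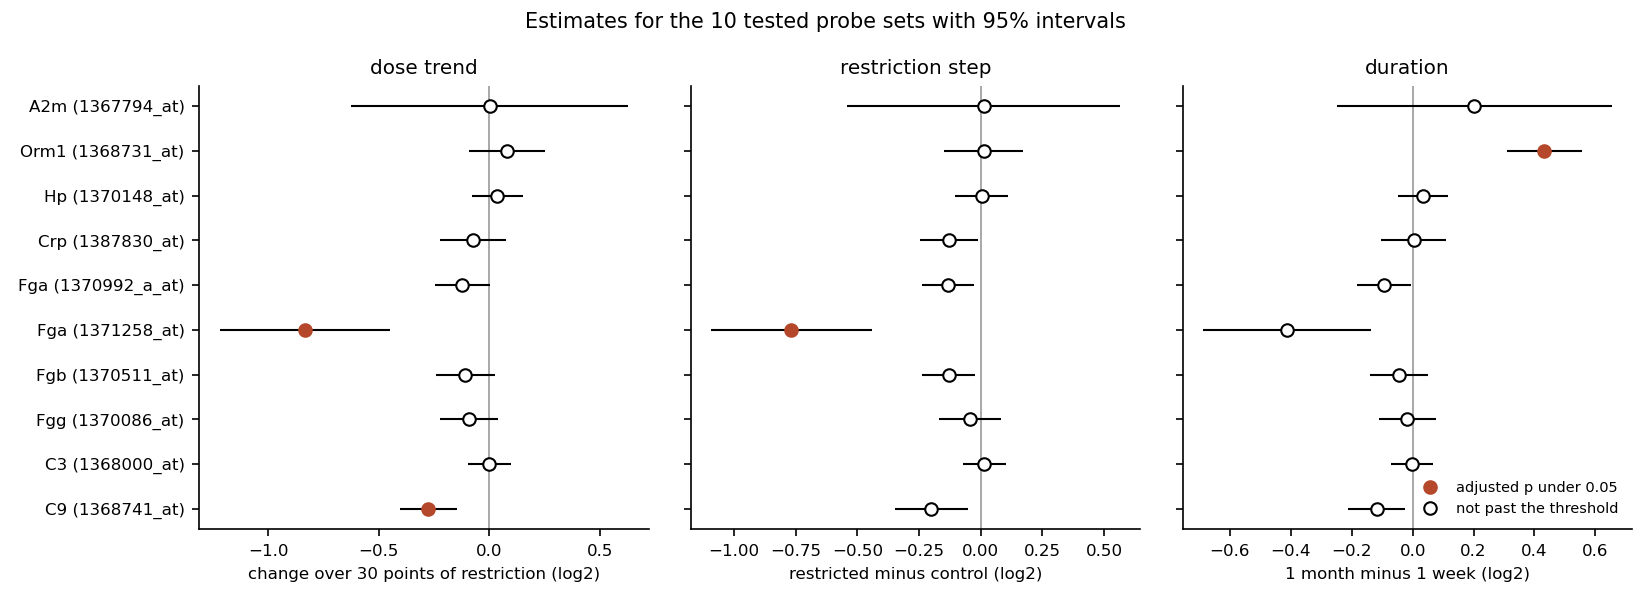
Estimates on the log2 scale with 95% intervals for the 10 tested member probe sets: the change over 30 percentage points of restriction, restricted minus control, and 1 month minus 1 week. Filled points passed an adjusted p of 0.05: C9 and Fga 1371258_at for the dose trend, Fga 1371258_at for restricted against control, and Orm1 for duration.

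Orm1 was the only member past the threshold between durations in the main fit. Its signal at 1 month was 1844 in control livers, 1839.8 at 5% restriction, 1834 at 10%, 2095 at 20% and 1878 at 30%. At 1 week it was 1424 in control livers, 1289 at 5%, 1500.0 at 10%, 1339 at 20% and 1482 at 30%. The 5 pools at 1 month did not overlap the 5 at 1 week. The share of all probe sets with that separation was not counted. With percent restriction as a covariate, Orm1 was higher by 0.43 ± 0.056 on the log2 scale (SE; 95% interval 0.31 to 0.56), which is 1.35-fold, with a limma adjusted p of 0.0108. It was 1 of the 10 tested members to pass, where 0.336% of all probe sets passed, 16 higher and 16 lower. The call did not hold with median centring (adjusted p = 0.129) or with the signals as deposited (adjusted p = 0.348), and among arrays numbered 1 alone it had an adjusted p of 0.0549. Fga 1371258_at was at a lower signal at 1 month at each of the 5 levels, with a log2 difference of -0.41 ± 0.127 that did not pass (limma adjusted p = 0.238). So were C9 at -0.12 ± 0.043 and Fga 1370992_a_at at -0.09 ± 0.041, neither past the threshold (limma adjusted p = 0.324 and 0.430). An unadjusted limma p under 0.05 was found for 4 of the 10 tested members, beside 10.7% of all probe sets. Duration and the age on the labels differ together between these groups and cannot be told apart.

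Markers of other liver cells moved with some of these groups. The summed signal of 5 of 8 listed endothelial markers was 293 to 336 in restricted pools, against 210 to 263 in control pools, and Vwf among them was under the lowest tested level. Of the 4 tested, Kdr, a receptor for vascular endothelial growth factor, rose by 0.60 in restricted against control livers (limma adjusted p = 0.00899, past in 20 of 21 other settings but not without the control pool of 1 month, at 0.215). That of 4 of 6 bile duct markers was 42.8 to 59.9 in restricted pools, against 66.5 to 77.0 in control pools, with Krt7, Krt19 and Spp1 under that level. Their part in the results for C9 and Fga was not tested. The sum of all 10 stellate cell and fibroblast markers was 411 to 475 at 1 month, against 570.0 to 640.4 at 1 week, and its part in the Orm1 result was not tested. Of the 9 tested, Col3a1, a fibrillar collagen, fell at 1 month against 1 week by 0.63 (limma adjusted p = 0.00863, past in 18 of 21 other settings). Col3a1 made up most of that sum, at mean signals of 269 at 1 month and 418 at 1 week. The other 8 did not pass, and the median difference over the 9 was -0.12. Of all probe sets, 0.336% passed for duration and 5.27% for restricted against control livers. Kupffer cell and macrophage markers, 8 of 15 listed, summed to 837 to 1092 in restricted pools, against 988 to 1057 in control pools. The 6 neutrophil markers on the array, S100a8, S100a9, Cxcr2, Lcn2, Np4 and Defa5, were all under the lowest tested level. Platelet markers, 3 of 6 listed, summed to 51.4 to 65.9 in restricted and 65.1 to 70.1 in control pools. The sum of 11 lymphocyte markers was 96.6 to 123 in restricted and 98.0 to 118 in control pools. Ppbp among the platelet markers and 9 of the 11 lymphocyte markers were under the lowest tested level.

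The rest of the pathway was read from gene lists, with each gene represented by its brightest probe set. Of the cytokine signalling genes that drive acute phase transcription, 19 of 24 listed were tested. Il6st, which encodes gp130, rose with restriction by 0.55 ± 0.136 on the log2 scale over 30 percentage points. Its limma adjusted p was 0.0458, and it was past the threshold in 6 of 22 other settings. Its call did not hold without the control pool of 1 month (slope 0.55) or that of 1 week (0.44). The other 18 did not pass the dose trend. In restricted against control livers 2 of the 19 fell: Stat3 by 0.58 (mean signals 139 and 207, limma adjusted p = 0.0407, past in 9 of 21 other settings) and Stat5b, a factor of growth hormone signalling, by 1.09 (mean signals 22.2 and 47.2, limma adjusted p = 0.0102, past in 16 of 20). Neither call held without the control pool of 1 month (-0.44 for Stat3 and -1.09 for Stat5b) or that of 1 week (-0.72 and -1.09). At 1 week alone, Il6st rose by 0.85 over 30 points (limma adjusted p = 0.0454, past in 7 of 21). That call did not hold without the control pool of 1 week (slope 0.72). The median of the 19 was 0.13 for the dose trend, beside 0.0034 for all probe sets. Of all probe sets, 3.76% passed the dose trend, 5.27% passed for restricted against control livers and 0.714% passed for the 1 week slope.

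Of the other positive acute phase proteins, 16 of 26 listed were tested, and for the dose trend 2 rose, 0 fell and 14 did not pass. Cd14, the co-receptor for bacterial lipopolysaccharide, rose by 1.01 ± 0.168 (limma adjusted p = 0.0101, past in 19 of 22 other settings). It is also among the macrophage markers above. The metallothionein Mt2A rose by 3.04 (limma adjusted p = 0.0360, past in 14 of 22). The Mt2A call for dose did not hold without the control pool of 1 month (slope 2.63) or that of 1 week (2.22). In restricted against control livers 1 of the 16 passed, Mt2A, at 739 against 83.5 in mean signal (limma adjusted p = 0.00235, past in 20 of 21 other settings but not without the control pool of 1 week, at 0.0666). At 1 week 1 of the 16 fell with dose, Hamp, the iron hormone hepcidin, with a slope of -3.66 (limma adjusted p = 0.0202, past in 16 of 21 other settings). The Hamp call was lost without the control pool (adjusted p = 0.0927), the 5% pool (0.0801) or the 30% pool (0.194) of 1 week. Of 15 tested negative acute phase proteins, those that fall during inflammation, 0 passed any of the 6 tests in limma, with 1 to 5 at an unadjusted p below 0.05 depending on the test, and the median slope for dose was -0.02. Of 21 other complement genes, 0 likewise passed any of the 6 tests in limma, with 0 to 5 at such an unadjusted p and a median slope of 0.03. Of all probe sets, 5.51 to 19.0% had such a p in these tests. Past the adjusted threshold were 3.76% for the dose trend, 5.27% for restricted against control livers and 0.714% for the 1 week slope. Whether C9 differed from the other complement genes was not tested.

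Of 15 tested coagulation and fibrinolysis genes, 0 passed the dose trend in limma, with 4 at an unadjusted p below 0.05, beside 19.0% of all probe sets, and a median slope of 0.06. In restricted against control livers 2 of the 15 rose: Klkb1, plasma prekallikrein, by 0.66 ± 0.114 (mean signals 654 and 413, limma adjusted p = 0.00683, past in 19 of 21 other settings) and F5, coagulation factor V, by 0.41 (mean signals 601 and 454, limma adjusted p = 0.0435, past in 4 of 21 other settings). Neither call held without the control pool of 1 month (0.67 for Klkb1 and 0.46 for F5) or that of 1 week (0.66 and 0.36). On the whole array 5.27% of probe sets passed for restricted against control livers. For Klkb1 and F5 the direction was opposite to that of Fga 1371258_at.

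The 10 pools share the dose series, the duration and the normalization. Candidates for likeness were the tested genes other than the members, each by its brightest probe set. Genes with patterns most like each member were sought among them by Pearson correlation over the pools. For C9 they were Vcp (r = 0.955, rho = 0.879) and Fdft1 (r = 0.941, rho = 0.952), and for the mean of the 3 fibrinogen chains Isyna1 (r = 0.937, rho = 0.915) and Ctsh (r = 0.923, rho = 0.903). For Fga 1371258_at, a target added after its values were seen, they were Lrrc59 (r = 0.993, rho = 0.964) and Fdps (r = 0.971, rho = 0.855), both above its r of 0.922 with the other Fga probe set. For Orm1 they were Xpnpep2 (r = 0.943) and Resp18 (r = 0.937), and for Crp Ctbp1 (r = 0.939) and Dag1 (r = 0.912). For A2m they were Gnpda1 (r = 0.927) and Heatr5a (r = 0.842). For Hp they were Prr14l (r = 0.936) and Skap2 (r = 0.925), and for C3 Zfhx3 (r = 0.861) and Slc4a7 (r = 0.861), over levels that take only a few values. These are the highest correlations among the tested genes that are not members, and they are given as a description.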

How the data were processed

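Total RNA of rat liver, pooled from 5 rats a group, was labelled with biotin and hybridised to Affymetrix arrays, 2 for each of 10 pools, per the labels. The authors deposited one intensity per probe set and array, and the submitters' processing notes name MAS5 as the tool. The arrays did not share a common scale, and 32 of the deposited intensities were 0. Intensities were quantile normalized on the log2 scale over all 15923 probe sets, and the 57 controls were then left out, which left 15866. The 2 arrays of a pool were averaged, and the 9520 probe sets in the upper 60% by mean log2 signal were fitted with limma 3.58.1 (lmFit, eBayes with a trend) in R 4.3.3. P-values were two-sided and adjusted by Benjamini-Hochberg over all probe sets tested, with a threshold of 0.05. Each group has 1 pool, so the residual spread comes from departures from the fitted line. The number of pools limits the precision, as the 2 arrays of a pool repeat the same RNA.

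Gene names came from the platform's annotation, which gave 1 gene for 8120 tested probe sets, several for 245 and none for 1155. All member probe sets were reported. From each gene list up to 4 genes past the threshold were named, by smallest p. For likeness the 2 non-member genes of highest correlation were named. The members and lists were chosen with earlier results of these data known. Array numbers 1 and 2 name technical repeats and pair no animals. The fits were tested on simulated data. Alternatives covered normalization, filter, variance prior, quality covariates, array repeats, a replicate block, the scale of the dose and leaving out each pool. MAS5 detection calls and probe sequences were not used here.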

Additional observations from a re-analysis of the deposited data

Results flagged for a closer look

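The distance of the highest or lowest pool from its neighbours was examined in 30 groups of 5 or 8 pools, of which chance singles out about 1 in 20, and 4 pools stood apart. Orm1 had a signal of 2094.5 in the 20% restriction pool at 1 month, with 1877.5 in the nearest and 1834.2 in the lowest of the other 1 month pools. Fga 1370992_a_at had a signal of 3104.1 in the control pool at 1 month, with 2921.5 in the nearest restricted pool of that duration. C3 had a signal of 7030.5 in the 10% restriction pool at 1 week, with 6798.9 in the nearest of the other restricted pools. C3 had a signal of 6632.7 in the 30% restriction pool at 1 month, where the other 1 month pools were all at 6798.9. The C3 values are set by its rank on the array.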

How the results depend on the processing

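The counts of members past the threshold moved with the processing. For the dose trend, 2 members passed, against 0 with signals as deposited, without a variance trend or with the GAPDH or the actin ratio as a covariate, and 1 with median centring or no filter. For restricted against control livers the count of 1 became 0 with signals as deposited or without a variance trend. For duration the count of 1 became 0 with signals as deposited, with median centring and without a variance trend. With the 2 arrays of a pool kept apart in a replicate block, 3 members passed for restricted against control, 1 for the 1 week slope, 1 for the 1 month slope and 2 for duration. The array numbers are technical repeats, so that fit takes its spread partly from arrays of the same RNA. Leaving out 1 pool or 1 set of arrays gave counts of 0 to 2 for the dose trend, 0 to 1 for restricted against control, 0 to 1 for the 1 week slope and 0 to 1 for duration. Over the whole array the 358 calls of the dose trend ran from 3 (GAPDH covariate) to 818 (replicate block), with 97 without the control pool of 1 month, 127 without that of 1 week and 66 without the 30% pool of 1 week. The 502 calls for restricted against control ran from 62 without the control pool of 1 month, 117 without that of 1 week and 192 without a variance trend to 884 with the replicate block and 888 without the 5% pool of 1 week. The 32 calls for duration ran from 1 (without a variance trend) to 197 (replicate block). The 1 week slope had 0 to 553 calls and the 1 month slope 0 to 157, both highest with the replicate block, and the cause of these moves was not tested.

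Adjusted p-values of the dose trend were 0.954 for C9 and 0.233 for Fga 1371258_at with signals as deposited, 0.248 and 0.149 with the GAPDH covariate, 0.10 and 0.123 with the actin covariate, and 0.164 and 0.0856 without a variance trend. C9 also missed with median centring (0.242) and no filter (0.0941), and Fga 1371258_at missed for restricted against control with signals as deposited (0.181) and without a variance trend (0.0550). Orm1 kept a duration difference of 0.39 to 0.61, past the threshold in 17 of 21 settings. The within-array slope of Fga 1371258_at minus 1370992_a_at was -0.82 to -0.60 over 15 other settings.

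Signs turned only for values that had not passed. With signals as deposited these were Crp 0.0032 and C3 0.065 for the dose trend, Crp 0.076, Fga 1370992_a_at 0.095, Fgb 0.044, Fgg 0.127 and C9 0.040 for restricted against control, and Fga 1370992_a_at 0.044, Fgb 0.064, Fgg 0.084, C3 0.108 and C9 0.043 for duration. With median centring and with trimmed mean scaling, Hp was at -0.089 and -0.052 for the dose trend, -0.128 and -0.132 for restricted against control and -0.024 and -0.023 for duration. C3 was at -0.070 and -0.075 for restricted against control, and Crp at -0.0098 and -0.0084 for duration. With the GAPDH covariate A2m was at -0.20 and C3 at 0.022 for the dose trend, and A2m at -0.036 and Hp at -0.0078 for restricted against control. With the actin covariate A2m was at -0.054 and C3 at 0.020, and with the rank of the level A2m was at -0.026 and C3 at 0.0071. Leaving out a pool or a set of arrays gave ranges across 0 for A2m (-0.29 to 0.29), Crp (-0.15 to 0.0063) and C3 (-0.016 to 0.023) for the dose trend. For restricted against control they were A2m -0.35 to 0.37, Orm1 -0.025 to 0.050, Hp -0.035 to 0.041, Fgg -0.10 to 0.011 and C3 -0.0089 to 0.039. For duration they were A2m -0.018 to 0.42, Crp -0.022 to 0.035, Fgg -0.054 to 0.013 and C3 -0.012 to 0.011, and for Orm1 -0.051 to 0.13 in the 1 week slope and -0.089 to 0.22 in the slope difference. Signal over background was not analysed here, and the arrays of a pool differed by an SD of 0.34 on the log2 scale for A2m.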
